A study of Mus musculus with 6 samples.

Results

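Genes of nicotinamide adenine dinucleotide (NAD) metabolism were followed through single-nucleus RNA-seq of mouse white fat. They were found by their symbols in the deposited gene lists: Nampt, Nmnat1, Nnmt, Cd38, Bst1, Parp1, Sirt1, Sirt2 and Sirt3, which are 9 of the 56980 genes listed and all of which had counts. The 6 libraries came from female C57BL/6J mice and formed 3 groups of 2: subcutaneous (inguinal) adipose tissue, SAT, at 2 months and at 24 months, and visceral (gonadal) adipose tissue, VAT, at 24 months. The labels name no gene deletion and no treatment in any group. The older mice are 24 months of age by the sample labels and 26 months by the design text. The study took both depots from 2 mice per age, so the SAT and VAT libraries at 24 months may share mice, and which ones is not stated. The age comparison was SAT at 24 against 2 months, and the depot comparison was VAT against SAT at 24 months. The p-values rest on the spread between the 2 libraries of a group, which the main fit pools over the 3 groups and moderates over genes. The spread in VAT thus enters the age comparison too.

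NAD carries electrons in metabolism and is also consumed as a substrate. Sirtuins and poly(ADP-ribose) polymerases split it and release nicotinamide, and the ectoenzymes Cd38 and Bst1 hydrolyse or cyclise it. In the salvage route Nampt joins nicotinamide to a phosphoribosyl group, which is the rate-limiting step, and the Nmnat enzymes then complete NAD. Nnmt takes nicotinamide out of this cycle by methylating it. In fat, Nampt is also known as the secreted protein visfatin, and its transcription is a textbook output of the circadian clock.

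All 9 gene identifiers were found in the GENCODE annotation of GRCm39. Nampt lies at chr12:32869544-32903368 on the plus strand, Nmnat1 at chr4:149552026-149569680 on the minus strand and Nnmt at chr9:48448913-48518959 on the minus strand. Bst1 at chr5:43976227-44001328 and Cd38 at chr5:44025875-44069717 are neighbours on the plus strand, 24.5 kb apart. Parp1 lies at chr1:180396443-180431307 on the plus strand, Sirt1 at chr10:63154581-63217483 on the minus strand, Sirt2 at chr7:28466160-28488090 on the plus strand and Sirt3 at chr7:140443577-140462311 on the minus strand. Whether the counting used the strand is not given in the sources used here, and 13789 bases of Cd38 overlap the antisense long non-coding RNA Gm16015, so reads of that stretch cannot be told apart by gene. Likewise, 13035 bases of Sirt1 overlap Gm16145, 6309 bases of Sirt2 overlap Gm19897, 6172 bases of Nmnat1 overlap the protein-coding Tmem274 and 2754 bases of Bst1 overlap the protein-coding Fbxl5, each on the other strand.

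The 3 members that changed with age in adipocytes, described further on, had start regions of very different make-up, and these are shown for that reason. Each is the stretch of the 250 bases before the start of the canonical transcript that lies outside exons of other transcripts, written 5′ to 3′ on the strand of the gene from the GRCm39 genome, with CG dinucleotides in capitals.
Nampt, chr12:32869972-32870169, plus strand, 198 bases: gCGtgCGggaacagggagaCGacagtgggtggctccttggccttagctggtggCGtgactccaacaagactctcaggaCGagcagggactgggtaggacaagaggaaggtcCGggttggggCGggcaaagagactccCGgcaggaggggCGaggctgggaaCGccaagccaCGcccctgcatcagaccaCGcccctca
Nnmt, chr9:48516459-48516708, minus strand, 250 bases: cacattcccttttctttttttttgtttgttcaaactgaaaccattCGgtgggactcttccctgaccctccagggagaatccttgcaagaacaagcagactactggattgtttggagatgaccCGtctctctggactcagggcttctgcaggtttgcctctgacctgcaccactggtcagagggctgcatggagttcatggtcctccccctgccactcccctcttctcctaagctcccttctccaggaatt
Cd38, chr5:44025625-44025874, plus strand, 250 bases: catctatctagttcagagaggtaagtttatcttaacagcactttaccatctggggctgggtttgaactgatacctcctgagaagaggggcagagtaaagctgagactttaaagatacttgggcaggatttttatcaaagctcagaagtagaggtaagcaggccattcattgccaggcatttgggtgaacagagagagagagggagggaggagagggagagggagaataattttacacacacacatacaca
The full 250-base window held 18 CG dinucleotides at Nampt, 2 at Nnmt and 0 at Cd38, against a median of 8 over 21751 promoters. Nampt had more of them than 79.7% of all promoters and Nnmt more than 16.5%. The other members had 23 at Nmnat1, 9 at Bst1, 18 at Parp1, 38 at Sirt1, 12 at Sirt2 and 17 at Sirt3. The E-box CACGTG, the letters bound by clock factors, reads the same on both strands and was found at 2 of 9 members, Parp1 and Sirt1, and in 6.26% of all promoters, but not in the Nampt window. The GC box GGGCGG, searched on both strands, was found at 6 of 9 members and in 36.3% of promoters, and at Nampt it lay 132 to 127 bases before the start. CCAAT was found on either strand at 2 of 9 members against 36.5% of promoters, and TATAAA at 0 of 9 against 11.9%. These matches describe letters in the window and not bound sites.

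The libraries held 8061862 to 16226690 unique molecular identifiers (UMIs, each 1 captured RNA molecule) over 50859 barcodes, of which 27074 nuclei passed the filters. The labels name the cell type as adipocytes, whereas 8 classes were named from their marker genes, among them 7363 adipocyte, 1505 fibro-adipogenic progenitor (FAP) and 10888 immune nuclei, with 7 immune subclasses. In the immune class, 1 subcluster of 400 nuclei that was left unnamed had 6 of its 10 leading genes highest in adipocytes, among them Acacb, Cfd and Slc1a3. It held 31 to 89 nuclei a library and was kept in the immune class. It took in a cluster of 81 nuclei that was named immune by 3 T cell markers, with 8 of its 10 leading genes highest in adipocytes. A class named from markers of conventional dendritic cells is called dendritic cells other than mature ones here (other DC in the plots), because 168 of its nuclei form a subcluster led by Siglech, Grm8, Irf8 and Runx2, of which Siglech marks plasmacytoid dendritic cells. Adipocytes had 9 of 9 markers and immune nuclei 8 of 8 above 2-fold over the rest. Adipocyte nuclei numbered 900 and 518 in the 2 libraries of SAT at 2 months, 683 and 2205 in SAT at 24 months, and 2903 and 154 in VAT. Levels are given as CPM, the UMIs of a gene divided by all UMIs of that class in that library and scaled to 1000000, and in each list of 6 values the order is SAT 2 months, SAT 24 months, VAT 24 months, replicate 1 first. VAT replicate 2 stood apart, with 23.5% of its nuclei unnamed and 2663 CPM of ovary and oviduct markers. At most 0.482% of the barcodes of the smaller library were shared by 2 libraries. Comparisons of levels between classes describe the classes and were not tested.

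Nampt, the rate-limiting salvage enzyme, had its highest mean over libraries in adipocytes and fell there with age. The adipocyte mean was 231 ± 178 CPM (SD, n = 6) and overlapped the 137 ± 89.3 CPM of FAPs (SD, n = 6). Of the classes ranked, adipocytes lay highest in both 2-month libraries, in SAT 24 months replicate 2 and in VAT replicate 1. In VAT replicate 2, at 84.2 CPM, adipocytes lay below macrophages at 193, mature dendritic cells at 158 and other dendritic cells at 117. They also lay below B cells at 99 and NK cells at 85.6 there. In SAT 24 months replicate 1, at 124, they lay below mesothelial nuclei at 137 and dendritic cells other than mature ones at 126. Skeletal muscle nuclei were not ranked, since they reached 20 nuclei in 2 libraries only, where they had 279 and 34.7 CPM on 13 and 2 UMIs. Adipocytes held 54.2% of its 6278 UMIs. Its adipocyte CPM was 509 and 400 at 2 months, 124 and 123 in SAT at 24 months, and 148 and 84.2 in VAT. Both young libraries lay far above all 4 aged ones, and the SAT mean went from 455 ± 77.4 (SD, n = 2) to 124 ± 0.537 (SD, n = 2). In the edgeR quasi-likelihood test over all genes, Nampt was 3.29-fold lower at 24 months (adjusted p = 0.00305, log2 fold change -1.72 ± 0.30 SE), and it passed in 17 of 17 fits, counting this one and its alternative settings, with a highest adjusted p of 0.0414. The median mitochondrial share of adipocyte nuclei moved with age in SAT as well, at 0.703% and 0.465%, then 1.43% and 1.93%, then 0.469% and 2.14%, and Nampt passed also among nuclei under 5%. VAT and SAT adipocytes at 24 months did not differ detectably, with a log2 fold change of 0.013 ± 0.30 (SE) and a 95% interval of -0.57 to 0.60, and the value was -0.60 without VAT replicate 1.

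The lower level of Nampt was seen in each of the 5 adipocyte subclusters. In the largest, led by Fam13a, the Nampt CPM was 527 and 403 at 2 months against 176 and 164 in SAT at 24 months. In the subcluster led by the fatty acid synthesis genes Acaca and Elovl6, it was 450 and 484 against 172 and 160. The remaining subclusters had Nampt means of 416 to 473 CPM at 2 months and 82.8 to 126 CPM in SAT at 24 months. None of the 5 had overlapping ages, and the subclusters are parts of the same libraries and not further replicates. Per 100 UMIs of the adipocyte genes Adipoq, Plin1, Plin4 and Cidec, adipocytes held 7.98 and 7.24 Nampt UMIs at 2 months, 1.83 and 1.58 in SAT at 24 months, and 1.88 and 1.20 in VAT.

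**Figure D1:**
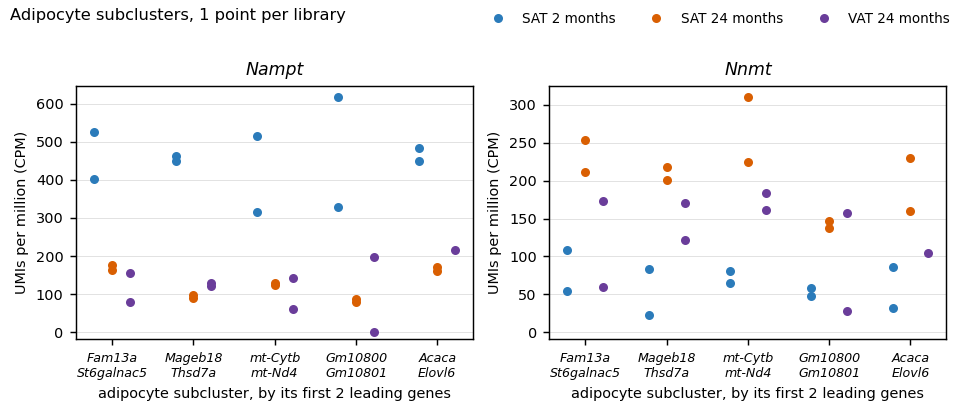
CPM of Nampt and Nnmt in each of 5 adipocyte subclusters, with 1 point per library and colours for the 3 groups. In each subcluster both 2-month points of Nampt lie above both points of SAT at 24 months, and both 2-month points of Nnmt lie below them.

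Outside adipocytes Nampt was found in every class, from a mean of 137 CPM in FAPs to 42.7 CPM in T cells over libraries. FAPs, the stromal cells that give rise to adipocytes, had 237 and 261 CPM at 2 months, 107 and 65 in SAT at 24 months, and 96.8 and 53.8 in VAT. The FAP nuclei of VAT replicate 2 stood apart, with 3940 CPM of the FAP marker list against 12800 to 20700 in the other 5 libraries, and clustering without Harmony left 34 of them in place of 299. Macrophages had 159 and 189, then 9.48 and 64.6, then 81.2 and 193, so that both 2-month SAT values and both VAT values lay above both SAT values at 24 months. Of all genes tested, 26.4% in FAPs and 28% in macrophages were lower without overlap of the SAT ages. The Nampt log2 fold change with age was -1.60 ± 0.48 (SE) in FAPs (unadjusted p = 0.00801) and -1.78 ± 0.57 (SE) in macrophages (unadjusted p = 0.00847), and neither passed edgeR's adjusted test (adjusted p = 0.332 and 0.23). In FAPs Nampt passed in 1 of 16 fits, the one without VAT replicate 2 (-1.66, adjusted p = 0.0333). In macrophages it passed in 3 of 16, among them those without VAT replicate 1 (-1.74, adjusted p = 0.0261) and without VAT replicate 2 (-1.75, adjusted p = 0.0324). The ages overlapped in B cells, at 72.1 and 73.3 CPM against 66.8 and 89.1, with a log2 fold change of 0.12 ± 0.39 (SE). The difference between the age effect in adipocytes and that in all immune nuclei was -1.04 ± 0.38 (SE) on the log2 scale, and it did not pass (edgeR adjusted p = 0.219).

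Nmnat1, the nuclear enzyme that completes NAD from nicotinamide mononucleotide, was a low transcript with 868 UMIs in all nuclei. Mature dendritic cells had the highest class mean, 36.5 ± 15.3 CPM (SD, n = 5), followed by adipocytes at 18.9 ± 7.88 CPM (SD, n = 6), and the spreads of this pair overlapped. Adipocyte Nmnat1 was 14.2 ± 4.91 CPM (SD, n = 2) at 2 months, 17.7 ± 6.67 in SAT at 24 months and 24.8 ± 11.2 in VAT. Its log2 fold change with age was 0.58 ± 0.46 (SE), with a 95% interval of -0.32 to 1.49, and was not past the threshold.

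Nnmt, the methyltransferase that takes nicotinamide out of the salvage cycle, was the opposite case, a transcript of adipocytes that rose with age. Adipocytes held 83% of its 3750 UMIs. Its CPM there was 59 and 82.9 at 2 months, 249 and 206 in SAT at 24 months, and 169 and 119 in VAT. All 4 aged libraries lay above both young ones, with VAT between the SAT ages. Nnmt was 3.64-fold higher in SAT adipocytes at 24 months (edgeR adjusted p = 0.00167, log2 fold change 1.87 ± 0.29 SE) and passed in 17 of 17 fits. In VAT it was lower than in SAT by a log2 fold change of -0.58 ± 0.28 (SE), which missed the threshold (unadjusted p = 0.0551, edgeR adjusted p = 0.731).

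The ages did not overlap for Nnmt in any of the 5 adipocyte subclusters either. Nnmt went from 54.6 and 109 CPM to 254 and 212 in the Fam13a subcluster, and from 32.2 and 86.6 to 230 and 160 in the Acaca and Elovl6 subcluster. The subcluster led by mitochondrial transcripts had the highest aged Nnmt mean, 268 CPM in SAT and 172 CPM in VAT. Outside adipocytes Nnmt was scarce: B cells and mature dendritic cells had means of 1.31 and 0.754 CPM, and NK and lymphatic endothelial nuclei had 0 UMIs in the 3 libraries each that held at least 20 such nuclei. Mesothelial and epithelial nuclei had 104 and 109 CPM of Nnmt in VAT replicate 1, on 43 and 5 UMIs, and at most 33.4 CPM in the other 5 libraries. Blood vascular nuclei came next after adipocytes, at 40.1 and 0 CPM, then 36.5 and 121, then 99.4 and 16.9. The blood vascular libraries with the highest Nnmt, SAT 24 months replicate 2 and VAT replicate 1, were also those with the highest adipocyte gene level in that class, 4230 and 3100 CPM against 524 to 1460 in the other 4, and the part of adipocyte RNA in this value was not tested. Nnmt did not pass in endothelial nuclei (edgeR adjusted p = 0.43, log2 fold change 2.72 ± 1.30 SE).

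**Figure D2:**
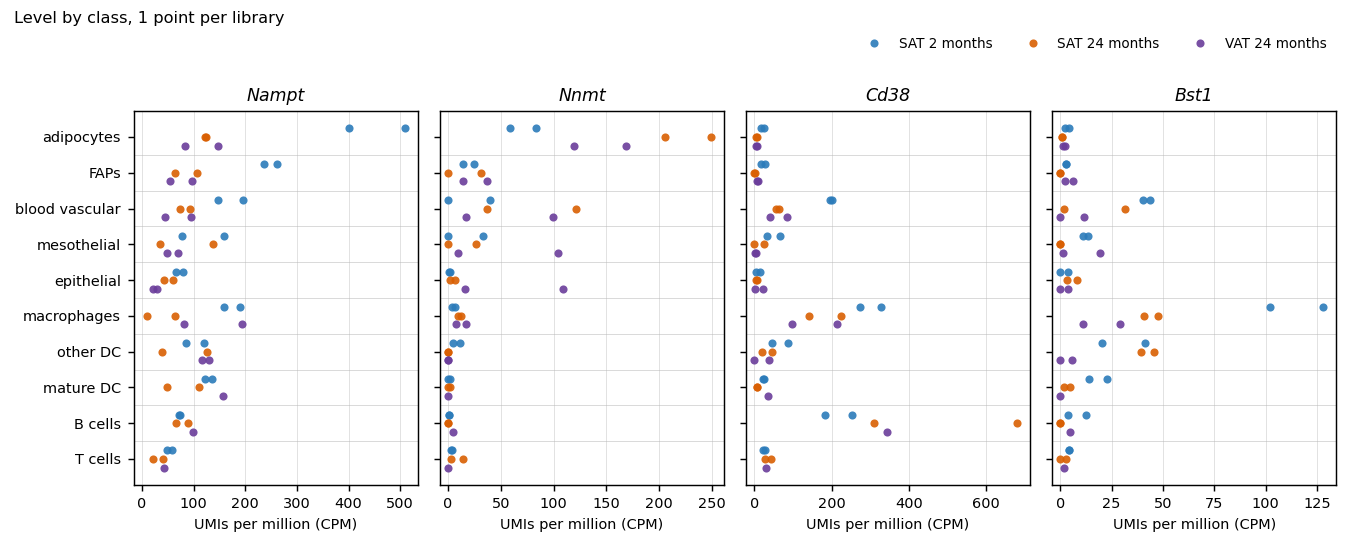
CPM of Nampt, Nnmt, Cd38 and Bst1 (horizontal axes, linear) by cell class (rows), with 1 point per library coloured by group. Nnmt lies highest in adipocytes, as does Nampt at 2 months, while in VAT replicate 2 Nampt is at 193 CPM in macrophages and 84.2 in adipocytes. Cd38 lies highest in B cells and macrophages, and Bst1 in macrophages at 2 months.

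Cd38, the main NAD-hydrolysing ectoenzyme of mammalian tissue, was a transcript of immune nuclei, which held 78.3% of its 2074 UMIs. By the mean over libraries B cells led, with 252 and 184 CPM at 2 months, 310 and 680 in SAT at 24 months, and 344 in VAT replicate 2, since VAT replicate 1 held 15 B nuclei and was left out. Macrophages followed with 328 and 274, then 142 and 225, then 215 and 96.7, and thus lay above B cells in both 2-month libraries. In SAT 24 months replicate 1 plasma cells, at 377 CPM on 35 nuclei, also exceeded B cells. Plasma cells had a mean of 205 ± 118 CPM (SD, n = 4) and blood vascular nuclei 107 ± 72.1 CPM (SD, n = 6). B cells, macrophages and plasma cells overlapped in their spread. T cells had 31.1 ± 7.65 CPM (SD, n = 5).

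Adipocytes stood near the bottom for Cd38 and fell from 16.6 and 24.3 CPM at 2 months to 6.17 and 5.34 in SAT at 24 months, with 4.37 and 7.01 in VAT. These values rest on 31, 22, 9, 30, 35 and 3 UMIs. The log2 fold change with age was -1.66 ± 0.51 (SE), and its edgeR adjusted p of 0.0494 was just inside the threshold, with 7 of 17 fits passing and adjusted p from 0.0308 to 0.337 over them. Leaving out any 1 of the 4 SAT libraries ended the call, with adjusted p of 0.151 and 0.337 without SAT 2 months replicate 1 and 2, and 0.0885 and 0.23 without SAT 24 months replicate 1 and 2. Some immune transcripts in the adipocyte nuclei moved the same way: Ptprc, Skap1, Trbc2, Bank1 and Cd79b together had 326 and 555 CPM at 2 months, 87 and 54.2 in SAT at 24 months, and 24.6 and 79.5 in VAT. The B cell marker list likewise had 278 and 400 CPM, then 81.6 and 41, then 21.5 and 56.1, and the macrophage list 341 and 264, then 103 and 160, then 190 and 168. The immune marker list did not, with 561 and 1090 CPM, then 865 and 674, then 516 and 507, so that its SAT ages overlapped. No gene of the 3 lists was at 0 at 2 months. Among adipocyte nuclei without any UMI of the immune marker list the log2 fold change of Cd38 was -2.21, with an adjusted p of 0.166. The part of immune RNA in the Cd38 value was not otherwise tested.

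In B cells the level of Cd38 was higher at 24 months, in both libraries, by a log2 fold change of 1.20 ± 0.36 (SE), or 2.29-fold. In edgeR's test the unadjusted p was 0.00391 and the adjusted p 0.0988, and it passed in 1 of 16 fits, the one without SAT 24 months replicate 1 (1.64, adjusted p = 3.88e-07). Without SAT 24 months replicate 2 it was 0.59 (adjusted p = 0.27). Other measures moved with age in B nuclei. Their median mitochondrial share went from 1.01% and 0.433% at 2 months to 7.61% and 5.96% in SAT at 24 months, and among nuclei under 5% the Cd38 log2 fold change was 0.85 (adjusted p = 0.4). The macrophage marker list in B nuclei went from 142 and 116 CPM to 191 and 810, highest in the library with 680 CPM of Cd38, and the lymph node list over whole libraries from 638 and 571 CPM to 176 and 61.3. The part of macrophage RNA and of lymph node tissue in the Cd38 value was not tested. Of all genes tested in B cells, 16.6% were higher without overlap of the ages. In the largest of 3 B subclusters, led by Bank1 and Ighd, Cd38 was 328 and 252 CPM at 2 months and 375 and 742 in SAT at 24 months. In the second, led by Ighd with Btla and Bach2, Cd38 was 142 and 138 CPM at 2 months and 96.5 and 96.9 in SAT at 24 months, where it rested on 3 and 1 UMIs. The second made up 171 and 301 B nuclei at 2 months, against 464 and 435 in the largest, and 22 and 8 at 24 months, against 83 and 66. The third, led by the cell cycle genes Mki67 and Top2a, had 34 and 53 nuclei at 2 months and 30 and 1 in SAT at 24 months, and its Cd38 was 27.3 and 26.7 CPM, then 258 and 0, on 2, 3, 11 and 0 UMIs. Cd38 did not pass in macrophages (log2 fold change -0.57 ± 0.45 SE, adjusted p = 0.624), in endothelial nuclei (-0.90 ± 0.53 SE, adjusted p = 0.513) or in T cells (0.62 ± 0.44 SE, adjusted p = 0.452). The age effect in adipocytes minus that in immune nuclei was -1.97 ± 0.53 (SE) for Cd38 and missed the threshold (edgeR adjusted p = 0.11), which it passed without VAT replicate 1 (-1.93, adjusted p = 0.036) and without VAT replicate 2 (-1.97, adjusted p = 0.0486).

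Bst1, the second ADP-ribosyl cyclase of this family and a lymphoid stromal and myeloid surface protein, had 603 UMIs, of which 40.8% were in immune and 45.4% in unnamed nuclei. Most of the latter were in 1 unnamed cluster of 342 nuclei led by Pcdh15 and Csmd1 with the lymphoid chemokines Ccl21a, Cxcl13 and Ccl19 and the complement receptor Cr2. Bst1 there had 410 and 385 CPM at 2 months, 315 and 400 in SAT at 24 months, and 0 and 38.1 in VAT. Over all nuclei VAT held 31 and 25 Bst1 UMIs, most of them in named classes, so its values in this cluster rest on few UMIs. The depots were not tested in this cluster. Cd38, the neighbour of Bst1, had 0 to 30.5 CPM in the same cluster.

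Among named classes Bst1 was highest in macrophages at 2 months, and macrophages had 102 and 128 CPM, then 47.4 and 40.7, then 29 and 11.2. At 24 months the lead was not clear: the dendritic cells other than mature ones had 45.7 and 39.3 CPM in SAT, on 4 UMIs each, and in VAT replicate 2 plasma cells had 13.2 and blood vascular nuclei 11.3. Within macrophages of SAT most Bst1 UMIs lay in the subcluster led by the resident macrophage genes Mrc1, Retnla and F13a1, with 306 and 512 CPM at 2 months and 73.2 and 68.1 at 24 months, on 27 of 29, 50 of 54, 3 of 5 and 16 of 17 macrophage UMIs. In VAT it had 18.4 and 0 CPM, and 7 of 10 and 3 of 3 UMIs lay in the subcluster led by Saa3, Marco and Cd209b, on 13 and 4 nuclei. The subcluster led by Spp1 and Gpnmb had 0 and 4.33 CPM of Bst1 at 2 months. In macrophages as a whole Bst1 had a log2 fold change with age of -1.33 ± 0.51 (SE) and did not pass (unadjusted p = 0.0213, edgeR adjusted p = 0.285). Mrc1-led nuclei were 51 and 55 of the macrophages at 2 months and 25 and 140 in SAT at 24 months. In adipocytes Bst1 had 22 UMIs in all and did not pass the filter on low counts.

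Parp1, the polymerase that spends NAD at DNA breaks, had its highest class mean in B cells, 112 ± 32.1 CPM (SD, n = 5), and its lowest in adipocytes, 24.1 ± 4.57 CPM (SD, n = 6). Plasma cells at 98.1 ± 42.9 CPM overlapped with B cells, and T cells followed at 59.4 ± 11.4 CPM (SD, n = 5). Adipocyte Parp1 was 25.2 to 32 CPM at 2 months and 18.2 to 23.9 CPM over the 4 aged libraries. Its log2 fold change with age in adipocytes was -0.14 ± 0.34 (SE), with a 95% interval of -0.80 to 0.53, and its sign changed with the setting. In FAPs it was -1.85 ± 0.89 (SE, edgeR adjusted p = 0.515).

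The sirtuins are NAD-dependent deacylases, and none of the 3 passed the age test in any class. Sirt1, a nuclear deacetylase, had its highest class mean in mature dendritic cells, with 149 and 131 CPM at 2 months, 93.6 and 51.8 in SAT at 24 months and 97.5 in VAT replicate 2. In SAT 24 months replicate 1 the other dendritic cells, at 103, and FAPs, at 93.8, lay above them. In SAT 24 months replicate 2 B cells and mesothelial nuclei, at 105 each, and epithelial nuclei, at 52.3, did. By mean B cells came next at 80.7 ± 16.3 CPM (SD, n = 5), within the spread of the mature dendritic cells, and adipocytes were low at 43.2 ± 13.7 CPM (SD, n = 6). In adipocytes Sirt1 was 57.9 ± 13.1 CPM (SD, n = 2) at 2 months, 40.9 ± 5.45 in SAT at 24 months and 30.9 ± 0.729 in VAT, and the log2 fold change with age was -0.35 ± 0.28 (SE), 95% interval -0.90 to 0.20. Sirt2, the mainly cytosolic deacetylase, had class means from 43.9 CPM in epithelial nuclei to 73 ± 16.4 CPM (SD, n = 6) in macrophages, with 61.4 ± 7.37 CPM (SD, n = 6) in adipocytes, and neighbours in this order lay within their spread. Sirt2 in adipocytes was 61.9, 61.1 and 61.1 CPM in the 3 groups, a log2 fold change with age of 0.13 ± 0.26 (SE), 95% interval -0.38 to 0.64. Sirt3, the mitochondrial deacetylase, had its highest class mean in the dendritic cells other than mature ones, 42 ± 35.9 CPM (SD, n = 6), a spread that covered the next 3 classes, B cells, mesothelial nuclei and adipocytes. Of these dendritic nuclei, the subcluster led by Siglech and Irf8 had 68.9 and 81.3 CPM of Sirt3 at 2 months, the one led by Wdfy4 and Plbd1 59.2 and 32.7, and the one led by Fgr and H2-Eb1 50.6 and 30.5. It had 36.5 and 39.8 CPM in adipocytes at 2 months, 25.4 and 28.3 in SAT at 24 months, and 26.3 and 21 in VAT. The adipocyte ages did not overlap, yet with the normalisation of the fit the log2 fold change was -0.33 ± 0.31 (SE), 95% interval -0.93 to 0.27, and did not pass. In T cells Sirt2 was the member with the lowest p, with a log2 fold change of 0.64 ± 0.31 (SE, edgeR adjusted p = 0.249).

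**Figure D3:**
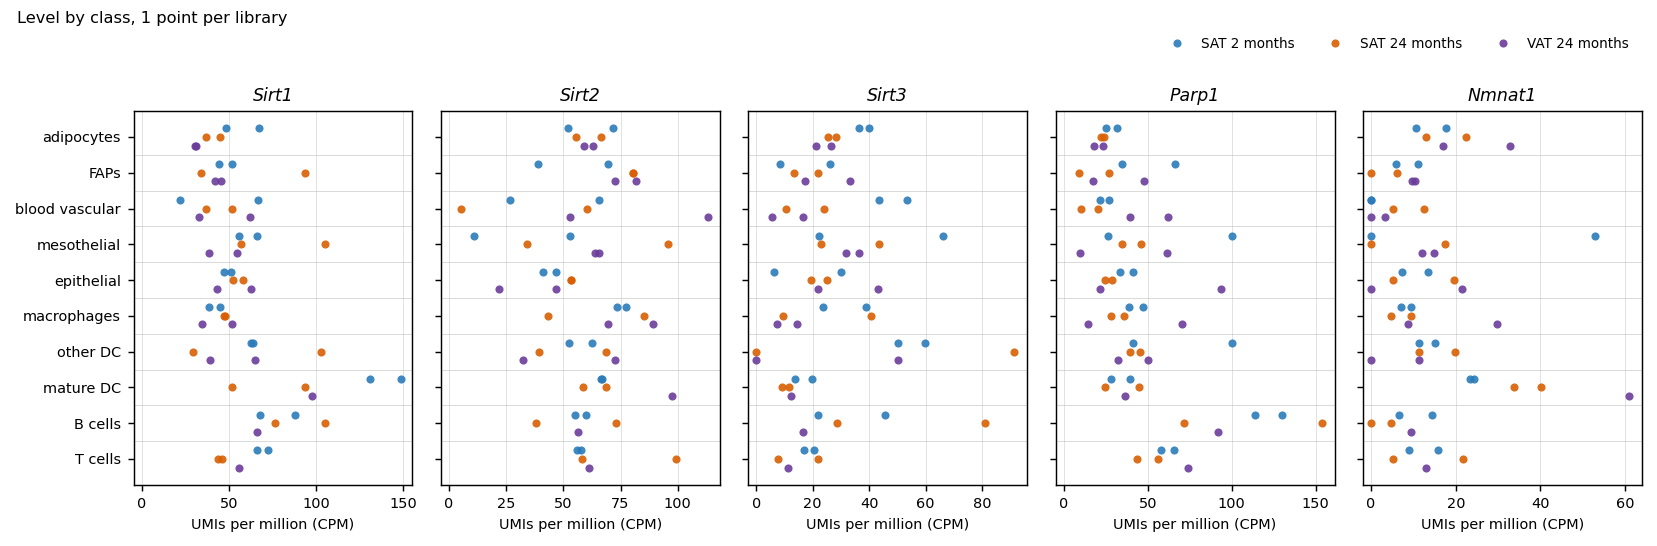
CPM of Sirt1, Sirt2, Sirt3, Parp1 and Nmnat1 (horizontal axes, linear) by cell class (rows), with 1 point per library coloured by group. Sirt1 and Nmnat1 have their highest mean in mature dendritic cells and Parp1 in B cells, while the Sirt2 means of the classes drawn differ little.

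Across the adipocyte comparison 3 of the 8 members tested passed with age, 1 higher (Nnmt) and 2 lower (Nampt and Cd38), while 14.2% of all 12971 genes tested passed, and at an unadjusted p under 0.05 there were 3 members against 30.4% of genes. By direction the background was 6.71% higher and 7.51% lower, and 39% of genes were lower and 21.7% higher without overlap of the ages. The median log2 fold change was -0.23 over the 8 members and 0.0012 over all genes tested. In the depot comparison 0 of 8 members passed, and 0.131% of genes did. At an unadjusted p under 0.05 there were 0 members against 6.97% of genes, and no other tool called any.

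**Figure D4:**
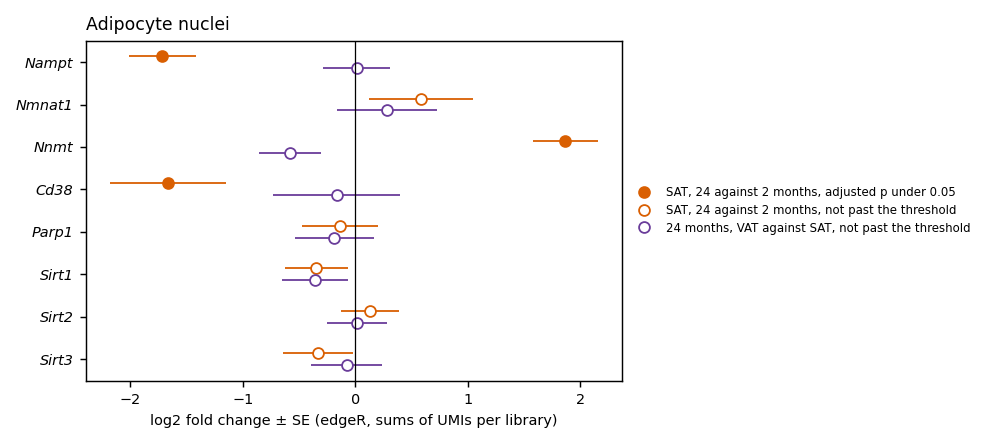
Log2 fold change ± SE for each member tested in adipocytes, for SAT at 24 against 2 months and for VAT against SAT at 24 months. With age, Nampt and Cd38 lie well below 0 and Nnmt well above it, and the depot values lie nearer to 0.

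In the other classes no member passed with age in the edgeR test. This was 0 of 5 in FAPs, 0 of 7 in macrophages, 0 of 6 in endothelial nuclei, 0 of 9 in all immune nuclei, 0 of 7 in T cells and 0 of 6 in B cells, and at an unadjusted p under 0.05 there were 1, 2, 0, 0, 0 and 1 members against 10.3%, 13.5%, 12.1%, 8.64%, 20.3% and 13.2% of genes. The share of all genes that passed was 0% in FAPs, 0.0531% in macrophages, 0.0253% in endothelial nuclei, 0% in immune nuclei, 6.97% in T cells and 2.41% in B cells, so in most of these classes the test called almost nothing. For the depots, 0 of 5 members passed in FAPs (0.0124% of all genes), 0 of 7 in macrophages (0.0663%), 0 of 6 in endothelial nuclei (0%) and 0 of 9 in immune nuclei (0%). At an unadjusted p under 0.05 the only one of these was Nampt in macrophages, higher in VAT by a log2 fold change of 1.55 ± 0.58 (SE, adjusted p = 0.899), against 5.23% of genes there, 6.06% in FAPs, 4.43% in endothelial and 7.84% in immune nuclei. No depot test was made in T or B cells, because VAT replicate 1 held 3 T and 15 B nuclei. Of the 9 members tested for a different age effect in adipocytes and immune nuclei, 0 passed, against 0.764% of genes, and 2 had an unadjusted p under 0.05, against 16.3% of genes. Without the subcluster led by adipocyte genes, 0 passed as well, here and in the class of immune nuclei. Summed over all nuclei, where cell make-up and RNA per nucleus cannot be told apart, 0 of 9 members passed with age (0% of genes) and 0 of 9 between depots (0.0138%), and at an unadjusted p under 0.05 there was 1 in each, Nnmt and Bst1, against 8.26% and 7.63% of genes.

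**Figure D5:**
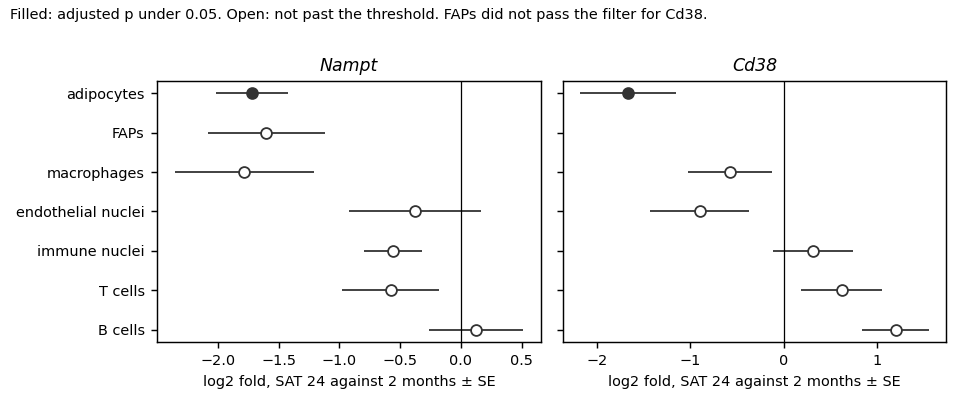
Log2 fold change ± SE of SAT at 24 against 2 months for Nampt and Cd38 in 7 classes, with filled marks for adjusted p under 0.05. Nampt and Cd38 have a filled mark in adipocytes, and the marks of Cd38 in B cells (1.20) and of Nampt in macrophages (-1.78) are open.

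Around the members, 50 further genes of NAD metabolism were examined, of which 34 were tested in adipocytes. With age, 1 was higher and 5 were lower, beside 6.71% and 7.51% of all genes tested (14.2% in either direction). For the depots 0 passed (0.131% of all genes), and the list's median log2 fold change with age was -0.16 against 0.0012 over all genes. Haao, an enzyme of the tryptophan route to NAD, had the steepest change, with 25.8 and 36.5 CPM at 2 months, 2.06 and 2.32 in SAT at 24 months, and 2.24 and 2.34 in VAT. Haao was 12.2-fold lower with age in adipocytes (edgeR adjusted p = 0.00134, log2 fold change -3.61 ± 0.54 SE) and passed in 17 of 17 fits. It was much higher in B cells, at 337 and 244 CPM at 2 months and 71.6 and 72.9 in SAT at 24 months, and was also called lower there (log2 fold change -1.94, adjusted p = 0.0109) and in T cells (-2.35, adjusted p = 0.00489). These 2 calls ended without SAT 2 months replicate 1, in B cells also without SAT 2 months replicate 2 and in T cells also without SAT 24 months replicate 1. In T nuclei of SAT the B cell marker list went from 297 and 376 CPM at 2 months to 161 and 123 at 24 months. Their median mitochondrial share went from 3.26% and 1.71% to 5.83% and 4.62%. The part of B cell RNA in the Haao value of T cells was not tested. The B cell and macrophage list levels in adipocyte nuclei given beside Cd38 were lower at 24 months too, the immune marker list overlapped between the ages, and among nuclei without immune UMIs Haao was the list gene that passed.

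Nmnat2, the cytosolic and Golgi partner of Nmnat1, went from 19.3 and 24.3 CPM to 5.48 and 6.59 in SAT adipocytes (edgeR adjusted p = 0.0349, log2 fold change -1.64 ± 0.47 SE). A pair of enzymes that act on nucleotides outside the cell fell as well. Enpp1, which cleaves NAD and ATP, went from 28.5 and 45.3 CPM to 9.59 and 12.8 (log2 fold change -1.49 ± 0.39 SE, adjusted p = 0.0262), and Nt5e, also known as CD73, from 27.9 and 34.3 CPM to 9.59 and 10.9 (-1.41 ± 0.42 SE, adjusted p = 0.042). Of the PARP family, Parp10 fell from 86.4 and 103 CPM to 50 and 38.1 (-0.95 ± 0.28 SE, adjusted p = 0.0421), while Parp9, a partner of Dtx3l in the DNA damage and interferon response, rose from 66.6 and 78.4 CPM to 252 and 138 (1.59 ± 0.41 SE, adjusted p = 0.0228). Nmnat2, Enpp1, Nt5e and Parp10 passed in 9 of 16, 10 of 17, 9 of 17 and 10 of 17 fits, and Parp9 in 14 of 17. Of the 6 list genes called, 1 was called without either SAT 2 months library, 3 without SAT 24 months replicate 1 and 2 without SAT 24 months replicate 2. In T cells 1 of 30 list genes passed, beside 6.97% of all genes, and in B cells 1 of 31, beside 2.41%, both being Haao, and 0 passed in FAPs, macrophages, endothelial or all immune nuclei.

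Since Nampt is a clock output, 15 clock genes tested in adipocytes were set beside it. With age 1 of 15 passed, beside 14.2% of all genes, and their median log2 fold change was -0.59 against 0.0012 over all genes. Clock itself was the 1 that passed and rose from 63.9 and 58.6 CPM to 146 and 232 in SAT, with 113 and 194 in VAT (edgeR adjusted p = 0.00302, log2 fold change 1.79 ± 0.31 SE). The others did not pass, among them Bmal1's targets Dbp (-1.90 ± 0.96 SE), Per1 (-0.59 ± 0.23 SE) and Nr1d1 (0.09 ± 0.34 SE). The time of day of tissue collection is not given in the sources used here.

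The genes most like the members in pattern were ranked by Pearson correlation of log2(CPM + 10) over 32 class and group means, among 11448 genes and with classes of the same libraries among the points. Nampt had no close companion, with r of 0.72 for Gm48832, 0.70 for Cfap44 and 0.68 for Rnf152, Usp35 and Slc38a6. Nnmt had r of 0.90 for Cmbl, 0.89 for Art3, A530053G22Rik and Sgcd, and 0.87 for Arxes2. Cd38 had r of 0.91 for Lyl1, 0.89 for Mgat4a, 0.88 for the B cell adaptor Bank1, and 0.87 for Snx2 and Cerk. Bst1 had r of 0.83 for the myeloid lectin Cd33, 0.82 for Pla2g7, 0.80 for Atp6v0b, and 0.79 for Trpm2, a channel opened by ADP-ribose, and Sdc3.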

How the data were processed

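Single-nucleus libraries were made with the Singleron GEXSCOPE kit, although a label says 10x Genomics. The authors processed the reads with Celescope against GRCm39 and deposited raw UMI counts per gene and nucleus, with no normalisation, and the tool's version and annotation are not given in the sources used here. A nucleus was kept where it had more than 1000 UMIs, more than 500 detected genes and less than 15% of its UMIs from mitochondrial genes. Doublets were not removed in the main results, and removing the top 5% by Scrublet score was an alternative. Nuclei were clustered on 1000 variable genes, without the members or the NAD list, with 30 principal components, Harmony correction by library, 20 neighbours and Leiden resolution 2.0 (1.0 within immune and endothelial nuclei, 0.5 within adipocytes), using scanpy 1.11.5 and leidenalg 0.10.2. Clusters were named from marker lists, and the naming rule was revised after the clusters were seen: immune and endothelial subclass lists also served at the top level, ovary, oviduct and lymph node lists were added as rivals, and a subcluster was left unnamed where more than 5 of the 10 genes that led it were highest in a different class. Counts were summed per library and class, for libraries with at least 20 nuclei, and these sums replaced the study's test of single nuclei. They were tested with edgeR 4.0.16 (TMM, filterByExpr, quasi-likelihood, two-sided, Benjamini-Hochberg over all genes tested, adjusted p under 0.05) with all 6 libraries in 1 fit, and fold changes come from that fit. In simulated adipocyte sums for 24 against 2 months over 12207 genes, 37 of 50 genes raised by a log2 fold change of 2, 24 of 43 lowered by 2, 5 of 47 raised by 1 and 5 of 44 lowered by 1 were called, with 2 unchanged genes. The simulation changed 50 genes at each fold, while 1845 of 12971 genes passed in the data. An adjusted p depends on how many genes change, so these call rates need not hold for the data. The SE of an edgeR fold change is its absolute log2 value divided by the square root of the quasi-likelihood F. The 95% intervals of fold changes were formed from this SE with the normal distribution, and are narrower than the test itself would give. Library totals were 8061862 to 16226690 UMIs. Same-numbered libraries did not deviate together, so no block on the replicate number was used. Between SAT and VAT at 24 months their deviations correlated at -0.48 in all nuclei, -0.495 in immune nuclei, 0.11 in adipocytes and -0.03 in FAPs. This check cannot tell whether libraries with unlike numbers share a mouse, and shared mice were not modelled. Alternatives were DESeq2 1.42.0, library-size scaling, no filter on low counts, looser filters on nuclei, clustering without Harmony, Scrublet, adipocyte nuclei without immune UMIs, only the 4 libraries compared, a replicate block and leaving out each library. Alternatives with under 5% mitochondrial UMIs, and with immune nuclei less the subcluster led by adipocyte genes, were chosen after seeing the data. The members and gene lists were chosen with earlier results of these data known. All 9 members are described, and of the NAD list the genes that passed are named. Of the clock genes, Clock passed, and Dbp, Per1 and Nr1d1 were chosen after their values were seen. Genes were placed with GENCODE M39.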

Additional observations from a re-analysis of the deposited data

Results flagged for a closer look

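Cd38 had higher levels at 24 than at 2 months in B cells in every SAT library, and lower levels in 3 other classes with at least 30 UMIs and a fitted value. It was also lower without overlap in classes that had no fitted value. These were mature dendritic cells (25.8 and 21.9 to 7.64 and 6.76 CPM, on 17, 29, 4 and 3 UMIs), FAPs (17.4 and 27.7 to 0 and 3.1, on 6, 10, 0 and 1 UMIs) and mesothelial nuclei (33.4 and 66.1 to 0 and 26.2, on 3, 5, 0 and 3 UMIs). Of all genes tested, 39% in adipocytes, 28% in macrophages and 26.4% in FAPs were lower without overlap, and 16.6% in B cells were higher. The share is not given here for endothelial, mature dendritic and mesothelial nuclei. The log2 fold change of Cd38 in B cells exceeded that in adipocytes by 2.86, that in macrophages by 1.77 and that in endothelial nuclei by 2.10. These differences were not tested class against class. In endothelial nuclei of SAT the B cell marker list went from 385 and 536 CPM to 118 and 49.2, and the immune marker list from 1590 and 2180 to 768 and 416. The macrophage list overlapped between the ages there, at 376 and 209 then 332 and 667 CPM. The part of immune RNA in the endothelial Cd38 value was not tested. Within B cells, the second subcluster had lower Cd38 at 24 months, at 96.5 and 96.9 against 142 and 138 CPM, on 3 and 1 UMIs. In B nuclei the median mitochondrial share moved with age too, from 1.01% and 0.433% to 7.61% and 5.96%, and the macrophage marker list from 142 and 116 CPM to 191 and 810, and their part in the Cd38 value was not tested beyond the 0.85 (adjusted p = 0.4) found among nuclei under 5%. The nearest test, the age effect in adipocytes minus that in all immune nuclei, gave -1.97 ± 0.53 (SE, edgeR adjusted p = 0.11), and -2.04 (adjusted p = 0.0751) without the immune subcluster led by adipocyte genes. Sirt1 was slightly higher at 24 months in both SAT libraries of macrophages, at 38.8 and 44.9 then 47.4 and 47.9 CPM, on 11, 19, 5 and 20 UMIs. It was lower in both of adipocytes (67.1 and 48.6 to 37 and 44.7 CPM) and of T cells (72.6 and 66.4 to 45.9 and 43.6 CPM). The share of all genes that were higher in macrophages or lower in T cells without overlap is not given here. The log2 fold change of Sirt1 in macrophages exceeded that in adipocytes by 0.62 and that in T cells by 0.85. Neither difference was tested. Sirt1 passed in none of these 3 classes.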

How the results depend on the processing

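In adipocytes the fall of Nampt and the rise of Nnmt with age passed in 17 of 17 fits, with Nampt log2 fold changes of -1.90 to -1.47 and Nnmt of 1.67 to 2.55, while Cd38 passed in 7 of 17. The NAD list count with age in adipocytes, 6, was 2 with DESeq2, 1 in nuclei without immune UMIs, 3 with looser filters, 2 without a filter on low counts, and 1 to 3 on leaving out 1 of the 4 SAT libraries. The member count of 0 with age became 1 without a filter on low counts in all nuclei and in macrophages, and leaving out single libraries moved it over 0 to 1 in all nuclei, FAPs, macrophages, B cells and the difference of age effects between adipocytes and immune nuclei. For the depots in all nuclei it also moved over 0 to 1, the 1 being without VAT replicate 1. In FAPs the 1 came without VAT replicate 2, in macrophages without VAT replicate 1 or 2, in B cells without SAT 24 months replicate 1, and in the difference of age effects without VAT replicate 1 or 2. Small effects changed sign. Parp1 with age in adipocytes was 0.12 without the filter and -0.28 to 0.021 on leaving out single libraries. Sirt2 was -0.046 with library-size scaling and -0.073 to 0.44 on leaving out single libraries. The depot difference of Nampt in adipocytes was -0.039 with DESeq2, -0.11 in nuclei without immune UMIs, -0.021 with library-size scaling, -0.014 without the filter, -0.0073 with only the 4 libraries compared, and -0.60 to 0.32 on leaving out single libraries, the lowest without VAT replicate 1. With the replicate block it was -0.066. The block took the adjusted p of Cd38 in adipocytes to 0.055, so that 2 members passed there, and the numbers were not taken as pairs, since deviations of same-numbered libraries correlated at -0.27, 0.18 and -0.48 in all nuclei and at -0.09, 0.03 and 0.11 in adipocytes. With 2 libraries a group, a change of 2-fold was often missed in the simulation, where fewer genes changed than passed in the data, and may be missed here. The 154 adipocyte nuclei of VAT replicate 2 limit the depot comparison.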
